A study of Mus musculus with 4 samples.

Results

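Metallothioneins are small, cysteine-rich proteins that bind zinc and copper. In the liver their genes are known to be induced by zinc through the transcription factor MTF1, and by glucocorticoids, fasting and inflammatory cytokines. Glucocorticoids act through the glucocorticoid receptor, and fasting through PPARA and FOXO factors, and each route has its own well known target genes. The 10 genes described here are the metallothioneins Mt1 and Mt2, the zinc exporter Slc30a1, the glucocorticoid responders Fkbp5, Tsc22d3, Sgk1 and Cdkn1a, and the fasting responders Lpin1, Angptl4 and Pdk4. They are 10 of the 33924 gene symbols with counts. Mt1 and Mt2 were chosen by their high counts at 9 months of age, and the other 8 genes were added with earlier results of these data known, to ask whether targets of stress or fasting share this peak. The values of the 10 genes across the ages are therefore given as a description without a test.

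Liver RNA came from male C57BL6 mice (substrain C57BL/6Rj) aged 3 (labelled Young), 9 (Adult), 15 (Old) or 21 months (Very old). All mice had food and water ad libitum and a 12 h light/12 h dark schedule, and no group was fasted or treated. For each age, RNA of 24 mice was combined before sequencing, 4 mice for every one of 6 sampling times around the clock, which averages daily rhythms. There was 1 library per age and no replicate, hence differences between mice cannot be told apart from differences between ages, and a pool does not show whether all mice or a few of them carried a transcript. Only capped RNA was kept, its 5’-ends were sequenced, and 525772 to 958586 counts per library fell on genes.

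Counts were divided by a scale factor for each library, the geometric mean of the counts of the 8704 genes detected in every library, as in centered log-ratio (clr) analysis. These values are called scaled counts. The 9 month ratio of a gene is its scaled count at 9 months divided by the scaled count of the 3 other libraries pooled. Intervals are exact 95% intervals (Poisson for a count, Clopper-Pearson for a ratio) and cover counting error only.

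The regions in front of Mt1, Mt2 and Slc30a1 are shown because these 3 genes are known targets of MTF1, which binds the metal response element (MRE), yet they differed in their values at 9 months. Each sequence is 5′ to 3′ on the strand of the gene, all on the plus strand, from 250 bases before to 50 bases after the start annotated by RefSeq in GRCm38.p6. Capitals mark the MRE core, TGCACNC or TGCGCNC on either strand. Mt1 is at chr8:94178839-94179138, Mt2 at chr8:94172368-94172667 and Slc30a1 at chr1:191906531-191906830.
Mt1: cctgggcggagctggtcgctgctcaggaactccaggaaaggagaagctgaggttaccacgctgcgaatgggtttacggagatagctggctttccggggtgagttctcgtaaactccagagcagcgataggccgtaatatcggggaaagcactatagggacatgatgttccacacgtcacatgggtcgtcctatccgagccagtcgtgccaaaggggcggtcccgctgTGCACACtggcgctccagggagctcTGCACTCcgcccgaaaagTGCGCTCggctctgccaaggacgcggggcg
Mt2: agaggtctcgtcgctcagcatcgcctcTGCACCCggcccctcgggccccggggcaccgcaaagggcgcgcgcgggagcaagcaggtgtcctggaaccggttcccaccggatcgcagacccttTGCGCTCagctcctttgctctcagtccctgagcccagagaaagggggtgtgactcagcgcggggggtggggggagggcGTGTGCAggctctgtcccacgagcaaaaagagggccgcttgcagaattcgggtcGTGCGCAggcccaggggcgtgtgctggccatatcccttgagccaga
Slc30a1: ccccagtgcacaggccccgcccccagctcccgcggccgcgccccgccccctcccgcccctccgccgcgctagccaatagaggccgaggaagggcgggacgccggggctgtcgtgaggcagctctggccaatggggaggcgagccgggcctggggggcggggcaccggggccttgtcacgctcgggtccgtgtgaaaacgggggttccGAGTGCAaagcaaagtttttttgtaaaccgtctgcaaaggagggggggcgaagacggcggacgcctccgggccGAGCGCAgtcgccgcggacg

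The window of Mt1 held 3 MRE cores, with first bases at -23, 3 and 21 from the start (base 1). That of Mt2 held 4, at -223, -128, -50 and 5, and that of Slc30a1 held 2, at -43 and 31. Of 32817 windows of the same length in front of annotated genes, 25.7% held at least 1 such core, 1.97% held at least 3 and 0.518% at least 4. Of the other members, only 1 of the 6 windows of Sgk1 held an MRE core. A match to a glucocorticoid response element, GNACA and TGTNC with 3 bases between, was present in the window of Mt1 and in 1 window of Sgk1, compared with 0.475% of all windows. The windows of Fkbp5, Tsc22d3, Cdkn1a, Lpin1 and Pdk4 held none of either. No member window held the PPAR element (2 copies of AGGNCA with 1 base between, 0.381% of all windows) or the FOXO element TGTTTAC (3.65%). The STAT element, TTC and GAA with 3 bases between, was found in 1 window each of Tsc22d3 and Sgk1 and in 8.29% of all windows. Matches on both strands were counted, no matches to different elements overlapped, and a match describes only the letters in the window. For Angptl4 no window was listed. NCBIM37 (mm9) was the assembly used for mapping, and there Mt1 has a second annotated start 122 bases downstream, whose window held 5 MRE cores.

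Mt1 and Mt2 lie next to each other on chromosome 8 of NCBIM37 (plus strand), Mt2 from 96696518 to 96697467 and Mt1 from 96702989 to 96704225, with 5521 bases between them. Mt1 was counted 135, 1335, 117 and 221 times at 3, 9, 15 and 21 months, which gave 111.5, 1127, 160.6 and 230.8 scaled counts. Mt2 had 5, 279, 13 and 48 counts, or 4.13, 235.6, 17.8 and 50.1 scaled counts. Both genes shared the same order of ages, with 9 months highest, followed by 21, 15 and 3 months. From 3 to 9 months, the ratio was 10.1 for Mt1 (95% interval from 8.47 to 12.2) and 57.1 for Mt2 (from 24.2 to 177.1), the latter resting on 5 counts at 3 months. The 9 month ratio was 6.91 for Mt1 (from 6.21 to 7.68) and 10.3 for Mt2 (from 7.88 to 13.7). The reference library mattered most for Mt2, whose ratio was 6.51 without the 3 month pool and 25.4 without the 21 month pool.

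Since the peak at 9 months chose both metallothioneins, nothing further is read from it. Over all genes with at least 40 counts in the 4 libraries together, 5090 genes, 24.6% were highest at 9 months and 1.02% were at least 2-fold above each other age there. Against the pooled other ages, 3.08% of genes were at least 2-fold higher and 6.25% at least 2-fold lower.

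**Figure D1:**
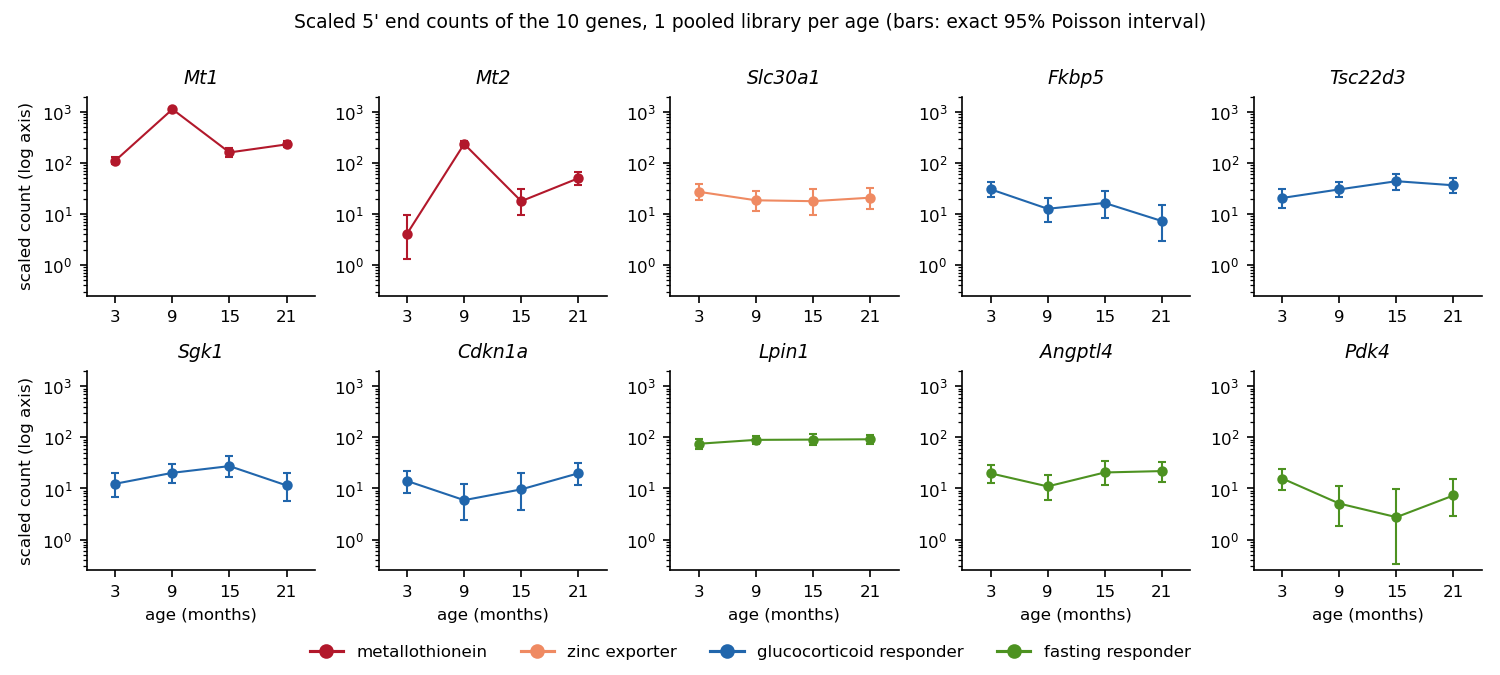
Scaled counts (log axis, the same range in every panel) of the 10 genes against age in months, 1 pooled library per age, with bars for the exact 95% Poisson interval. Mt1 and Mt2 stand at 1127 and 235.6 scaled counts at 9 months, above all their other ages, while none of the other 8 genes is highest there.

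The 15 and 21 month pools also had more scaled counts of the metallothioneins than the single 3 month pool, where Mt2 had 5 counts. At 21 months, Mt1 was 2.07-fold (from 1.66 to 2.58) and Mt2 12.1-fold (from 4.86 to 39.1) above 3 months. The intervals of Mt1 and Mt2 between 15 and 3 months lay above 1 as well, with ratios of 1.44 (from 1.11 to 1.86) and 4.32 (from 1.45 to 15.5). In the same comparison of 21 with 3 months, 8.37% of all genes tested were at least 2-fold higher and 10% at least 2-fold lower. Among the 9 members with at least 40 counts, 2 were at least 2-fold higher (Mt1 and Mt2) and 1 at least 2-fold lower (Fkbp5). Fkbp5 passed this minimum only through the 3 month pool, to which the 21 month pool was compared here.

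Ratios of reads within a library do not depend on any scaling. For each read of Mt2, there were 27 reads of Mt1 at 3 months (from 11.3 to 84.5), 4.79 at 9 months (from 4.20 to 5.46), 9 at 15 months (from 5.06 to 17.4) and 4.604 at 21 months (from 3.36 to 6.43). The share of Mt2 in the metallothionein reads was thus lowest at 3 months, where it rested on 5 counts of Mt2. The interval of 3 months overlapped that of 15 months but not that of 9 months, and the intervals cover counting error only. Against Slc30a1, Mt1 had 4.09 reads per read at 3 months (from 2.78 to 6.18), 60.7 at 9 months (from 39.9 to 97.2), 9 at 15 months (from 5.06 to 17.4) and 11.1 at 21 months (from 6.98 to 18.4). Since the 9 month count chose Mt1, this order is a description.

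**Figure D2:**
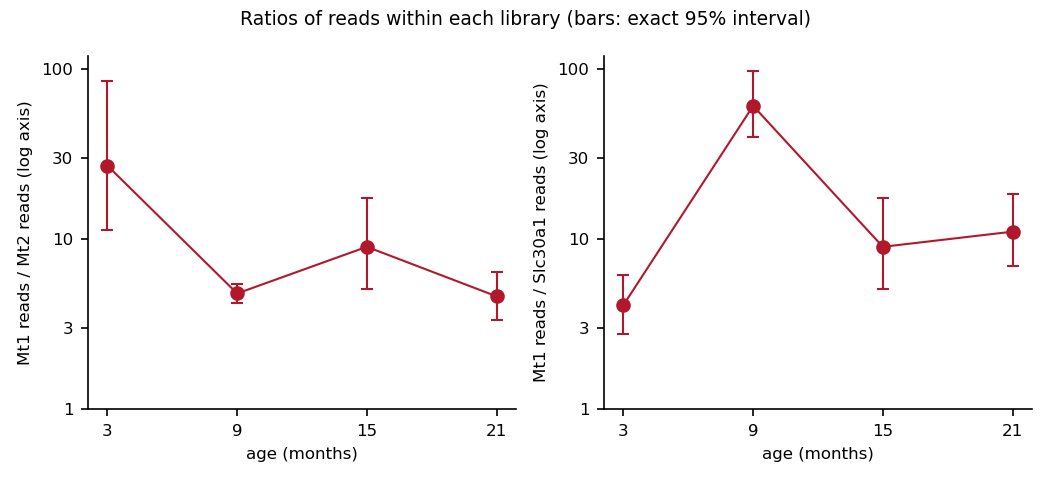
Reads of Mt1 per read of Mt2 (left) and per read of Slc30a1 (right) in each library against age in months, both on log axes, with bars for the exact 95% interval. Mt1 to Mt2 is highest at 3 months with 27, whereas Mt1 to Slc30a1 is highest at 9 months with 60.7.

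Slc30a1, which exports zinc from cells and is induced by MTF1 like the metallothioneins, lies on chromosome 1 from 193730646 to 193737126. It had 33, 22, 13 and 20 counts at 3, 9, 15 and 21 months, or 27.3, 18.6, 17.8 and 20.9 scaled counts. The 3 month pool was the highest, and the intervals of all 6 pairs of ages included a ratio of 1. Its 9 month ratio was 0.815 (from 0.479 to 1.34).

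The other genes of zinc handling were described by a list of 25 genes, including Mt1, Mt2 and Slc30a1. Mt3 and Mt4, the neighbours of Mt2 on chromosome 8, and Slc30a2 had no count in any library, which allows at most 3 counts each, or 3.13 to 5.71 cpm (counts scaled to the library total). Of the 10 listed genes other than members with at least 40 counts, 1 was at least 2-fold higher at 9 months than at the other ages, 1 at least 2-fold lower, and 2 had their highest value at 9 months. For all genes tested these shares were 3.08%, 6.25% and 24.6%. Slc30a9, a zinc transporter family member, had 12, 23, 8 and 4 counts and a 9 month ratio of 2.34 (from 1.26 to 4.34). It passed the minimum of 40 counts only through the 9 month pool. Slc30a5, which loads zinc into the secretory pathway, had 24, 7, 2 and 13 counts and a ratio of 0.439 (from 0.166 to 0.993). Without the 3 month pool, where it was highest, Slc30a5 would not have passed the minimum. The median log2 ratio of these 10 genes was -0.25, compared with -0.02 over all genes tested. Mtf1 itself, named after its values had been seen, had 22, 14, 14 and 10 counts and a ratio of 0.745 (from 0.378 to 1.38).

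**Figure D3:**
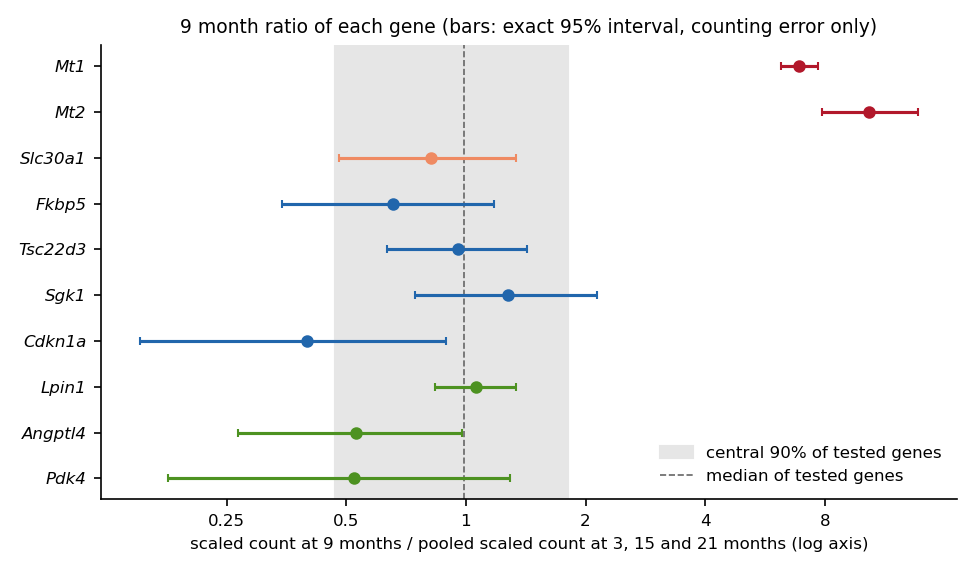
The 9 month ratio of each of the 10 genes (log axis) with its exact 95% interval, beside the median (dashed) and the central 90% of the 5090 tested genes (grey, from 0.468 to 1.81). Mt1 and Mt2 lie at 6.91 and 10.3, and the other 8 genes between 0.398 and 1.28.

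Of the 8 members that are not metallothioneins, none was highest at 9 months. The highest scaled count was found at 3 months for Slc30a1, Fkbp5 and Pdk4, at 15 months for Tsc22d3 and Sgk1, and at 21 months for Cdkn1a, Lpin1 and Angptl4. For all genes tested, the shares with the highest value at 3, 15 and 21 months were 28.8%, 22.3% and 24.3%. The 9 month ratios of these 8 members had a median of 0.735 and ranged from 0.398 to 1.28, with 2 above and 6 below 1.

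Among the glucocorticoid responders, Fkbp5, a co-chaperone of the glucocorticoid receptor, lies on chromosome 17 from 28536040 to 28654469. It had 37, 15, 12 and 7 counts at 3, 9, 15 and 21 months, or 30.6, 12.7, 16.5 and 7.31 scaled counts. The 3 month pool was highest and the 21 month pool lowest, with a ratio of 0.239 (from 0.09 to 0.544) between both. From 3 to 9 months the ratio of Fkbp5 was 0.415 (from 0.211 to 0.774), opposite in direction to Mt1 and Mt2. Its 9 month ratio of 0.655 (from 0.344 to 1.17) became 1.12 without the 3 month pool in the reference.

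Tsc22d3, which encodes the anti-inflammatory protein GILZ, lies on chromosome X from 137074067 to 137135198. It had 25, 36, 32 and 35 counts, or 20.6, 30.4, 43.9 and 36.5 scaled counts. In contrast to Fkbp5, it was lowest at 3 months, and the ratio of 15 to 3 months was 2.13 (from 1.22 to 3.75). Fkbp5 had 1.48 reads per read of Tsc22d3 at 3 months (from 0.867 to 2.56) and 0.2 at 21 months (from 0.0750 to 0.457), and these intervals did not overlap. The 9 month ratio of Tsc22d3 was 0.957 (from 0.632 to 1.42).

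Sgk1, a kinase that regulates ion transport, lies on chromosome 10 from 21601990 to 21719709. With 15, 24, 20 and 11 counts, or 12.4, 20.3, 27.5 and 11.5 scaled counts, it was highest at 15 months. Its 9 month ratio of 1.28 (from 0.745 to 2.14) was the highest among the 8 genes, and 77.8% of all genes tested had a lower one. Cdkn1a, which encodes the cell cycle inhibitor p21 and is a target of p53 as well, lies on chromosome 17 from 29227924 to 29237667. It had 17, 7, 7 and 19 counts, or 14.04, 5.91, 9.61 and 19.8 scaled counts. At 9 months Cdkn1a was lowest, with a 9 month ratio of 0.398 (from 0.151 to 0.893). It was the only one of the 9 members with at least 40 counts that lay at least 2-fold below the other ages, compared with 6.25% of all genes. Leaving out its 3 or its 21 month pool would leave fewer than 40 counts.

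Among the fasting responders, Lpin1 encodes a phosphatidate phosphatase that also acts as a transcriptional co-activator. It lies on chromosome 12 from 16542475 to 16596576 and had 91, 106, 66 and 88 counts, or 75.2, 89.5, 90.6 and 91.9 scaled counts. With these depths, it was the most even of the 10 genes, with a 1.22-fold span between the highest and the lowest age and all 6 intervals including 1. Its 9 month ratio was 1.06 (from 0.835 to 1.33).

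Angptl4, a secreted inhibitor of lipoprotein lipase, lies on chromosome 17 from 33910695 to 33918520. It had 24, 13, 15 and 21 counts, or 19.8, 11.0, 20.6 and 21.9 scaled counts, with the lowest value at 9 months and a 9 month ratio of 0.530 (from 0.267 to 0.976). Pdk4, which inhibits the pyruvate dehydrogenase complex, lies on chromosome 6 from 5433351 to 5446309. It had 19, 6, 2 and 7 counts, or 15.7, 5.07, 2.75 and 7.31 scaled counts. Pdk4 was highest at 3 months and had a 9 month ratio of 0.524 (from 0.178 to 1.29), which was 0.949 without the 3 month pool in the reference. With 34 counts in all, the lowest total among the 10 genes, it was left out of the counts of members over genes tested. The ratio of 9 to 3 months was 0.554 for Angptl4 (from 0.259 to 1.13) and 0.323 for Pdk4 (from 0.106 to 0.841).

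**Figure D4:**
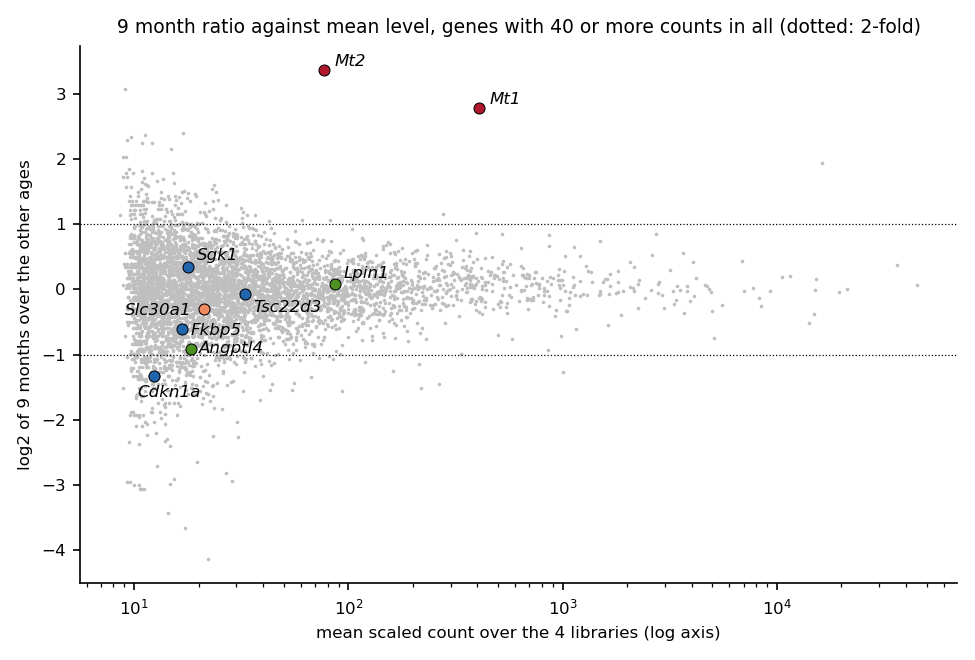
The log2 of the 9 month ratio against the mean scaled count (log axis) for the 5090 genes with at least 40 counts, with dotted lines at 2-fold and the 9 members above this minimum in colour. Mt1 and Mt2 lie at log2 ratios of 2.79 and 3.37, and the other 7 members from -1.33 to 0.35. Mrpl49 (3, 31, 4 and 2 counts, ratio of 8.43) lies between Mt1 and Mt2. It was named after its values had been seen and reached the minimum only through the 9 month pool.

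The wider pathways were described by lists, of which only genes with at least 40 counts were counted. For all genes tested, 3.08% were at least 2-fold higher at 9 months than at the other ages and 6.25% at least 2-fold lower. Of the 16 other glucocorticoid receptor targets with at least 40 counts, none was at least 2-fold higher at 9 months, 1 was at least 2-fold lower and 7 were highest at 9 months, compared with 24.6% of all genes tested. The median log2 ratio was 0.10, or 0.03 with the members, and -0.02 over all genes tested. With library totals or the study's marker genes as the scale, the medians of the whole glucocorticoid and fasting lists were below 0, as was that of all genes. The lowest ratio was that of Lcn2, an acute phase protein gene, with 0, 9, 32 and 23 counts and a ratio of 0.4003 (from 0.174 to 0.816). Lcn2 passed the minimum only through the 15 month pool. Mertk and Irs2 had ratios of 0.559 (from 0.224 to 1.23) and 0.515 (from 0.208 to 1.12). Several targets with more counts had ratios above 1. Tat and Tdo2, which degrade tyrosine and tryptophan, had ratios of 1.56 (from 1.44 to 1.69) and 1.58 (from 1.48 to 1.69). Sds, which degrades serine, and Hsd11b1, which regenerates active glucocorticoid, had ratios of 1.52 (from 1.36 to 1.69) and 1.52 (from 1.32 to 1.75). These 4 genes were named after their values had been seen, and each was highest at 9 months.

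Of the 24 other fasting, PPARA and FOXO targets, 2 were at least 2-fold higher at 9 months, none was at least 2-fold lower and 4 were highest at 9 months, with a median log2 ratio of 0.03. Slc25a20, the mitochondrial carnitine carrier, had 22, 48, 18 and 16 counts and a ratio of 2.10 (from 1.40 to 3.14). Txnip, an inhibitor of thioredoxin and of glucose uptake, had 22, 38, 9 and 15 counts and a ratio of 2.02 (from 1.28 to 3.17). Mlycd, which degrades malonyl-CoA, had a ratio of 0.537 (from 0.230 to 1.12).

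The feeding and lipogenic genes were set beside the fasting targets. Of 22 genes, none was at least 2-fold higher and 1 was at least 2-fold lower at 9 months, with a median log2 ratio of -0.14. The latter was Pklr, the liver pyruvate kinase, with 159, 47, 46 and 132 counts and a ratio of 0.341 (from 0.246 to 0.464). Both acetyl-CoA carboxylase genes were lower, with ratios of 0.580 for Acaca (from 0.351 to 0.921) and 0.591 for Acacb (from 0.415 to 0.826). Insig2, which retains the SREBP complex in the endoplasmic reticulum and whose liver transcript is known to be induced by fasting, had 147, 204, 51 and 98 counts and a ratio of 1.69 (from 1.40 to 2.02).

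Acute phase, immediate early and p53 target genes were described in the same way. Of 23 acute phase and IL6 target genes with at least 40 counts, none was at least 2-fold higher and 3 were at least 2-fold lower at 9 months. For all genes tested these shares were 3.08% and 6.25%. The median log2 ratio of the 23 genes was -0.18. The 3 lower genes were Saa1 with a ratio of 0.480 (from 0.227 to 0.927), Lbp with 109, 54, 71 and 87 counts and a ratio of 0.495 (from 0.362 to 0.665), and Lcn2, which is also on the glucocorticoid list. Saa1 and Lcn2 were highest at 15 months and passed the minimum only through that pool. Of 9 immediate early and handling stress genes with at least 40 counts, 2 were at least 2-fold higher, compared with 3.08% of all genes tested. None of the 9 was at least 2-fold lower, compared with 6.25%, and their median log2 ratio was 0.18. Listed genes with fewer counts were left out, and some of them lay past 2-fold in either direction. Zfp36, an RNA-binding protein that promotes mRNA decay, had 62, 156, 55 and 66 counts and a ratio of 2.08 (from 1.67 to 2.60). The heat shock gene Hspa1b had 11, 24, 8 and 9 counts and a ratio of 2.10 (from 1.16 to 3.75), and it passed the minimum only through the 9 month pool. The p53 target list also held Trp53, the gene of p53 itself. Of its 5 genes other than Cdkn1a with at least 40 counts, only Trp53 was at least 2-fold higher. It had 19, 32, 3 and 17 counts and a ratio of 2.01 (from 1.22 to 3.29), and it passed the minimum only through the 9 month pool. The median log2 ratio of these 5 genes was 0.58, and 3 of them were highest at 9 months, compared with 24.6% of all genes tested. Among these 3 was Plk2 with 13, 42, 14 and 28 counts and a ratio of 1.87 (from 1.22 to 2.84). Of the 19 listed genes in the data, 6 had at least 40 counts, and 4 of these 6 had ratios above 1. Cdkn1a, with its ratio of 0.398, was the lowest of the 6.

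**Figure D5:**
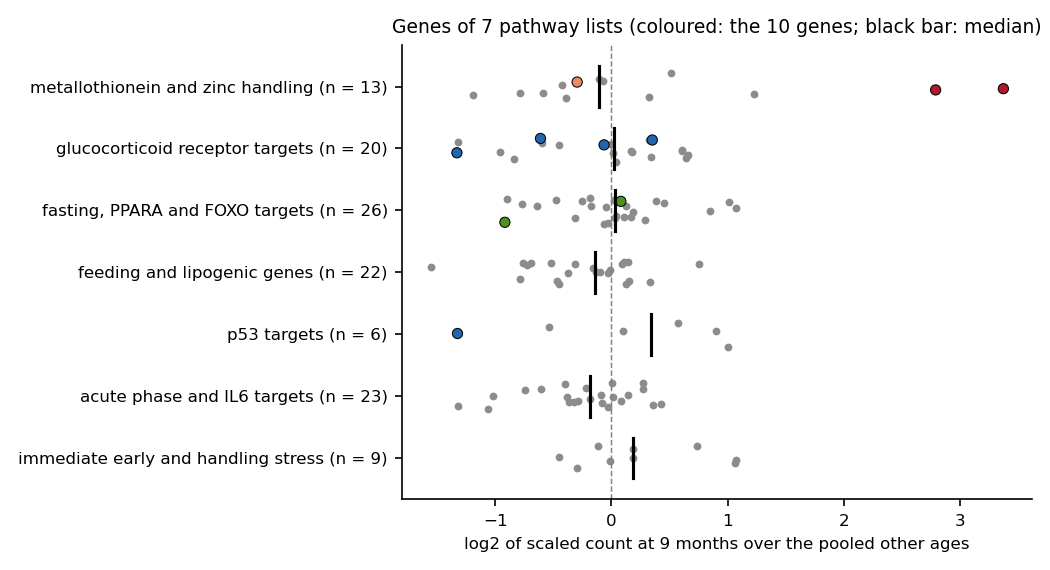
The log2 of the 9 month ratio of every gene with at least 40 counts in 7 pathway lists, with the members in colour and the median of each list as a black bar. Apart from Mt1 and Mt2 at 2.79 and 3.37, no gene shown exceeds the ratio of 2.34 of Slc30a9, and the medians lie between -0.18 and 0.34. Listed genes with fewer than 40 counts are not shown, and some of them had higher ratios.

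By profile over the 4 libraries, the genes most like the mean of Mt1 and Mt2 were Rb1cc1, Plekhm3, Med14, Dennd1b and Pde4b. Likeness was measured as the Euclidean distance of centred log2 scaled counts, which was 1.10 for Rb1cc1 and 1.70 for Pde4b, compared with 0.981 for Mt1 and Mt2 themselves and a median of 3.37 over 5088 genes. Rb1cc1 had 3, 35, 2 and 13 counts and Med14 5, 34, 2 and 9 counts, and each of the 5 genes had fewer than 40 counts in the other 3 libraries together, so that they passed the minimum only through the 9 month pool. Of the members, Lpin1 came nearest with a distance of 3.16, followed by Tsc22d3 with 3.16, Sgk1 with 3.19 and Slc30a1 with 3.63. Fkbp5, with 4.35, took place 4872 among the 5088 genes.

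A linear trend with age was fitted over all 5090 genes with edgeR's quasi-likelihood test and TMM scale factors. No gene rose (0%) or fell (0%) at an adjusted p of 0.05, and 275 genes passed 0.05 without adjustment. DESeq2 called 0 genes, with 122 passing 0.05 without adjustment. With clr scale factors edgeR called 3 genes, and with no filter on counts 9 genes, none of them a member. Without the 9 month pool it called 9 genes, from 3 libraries with 1 residual degree of freedom. As the counts of the members over the ages had been used to choose them, no p-value is given for a member.

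Markers of the cell types of the liver were compared between the pools, as fewer cells of a type and less RNA per cell cannot be told apart in bulk RNA. All 12 hepatocyte markers passed 40 counts, and their summed scaled counts ranged from 84440.9 at 15 months to 101228.2 at 9 months. The 12 Kupffer cell and macrophage markers summed to between 715.2 at 3 months and 938.8 at 21 months, and the 10 sinusoidal endothelial markers to between 748.3 at 15 months and 846.2 at 9 months. The stellate and matrix markers were lower at 3 months, with 358.4, than at the other ages (from 549.3 to 575.1). Blood cell markers were highest at 9 months with 1926 scaled counts, compared with 1084 to 1281 at the other ages, and most of these counts were of Hbb-b1 (865, 1511, 598 and 617 counts) and Hbb-b2 (475, 596, 224 and 268 counts). Hba-a1 and Hba-a2 had 9 month ratios of 0.847 (from 0.525 to 1.33) and 1.24 (from 0.786 to 1.93). The ratio of Alas2, named after its values had been seen, was 0.947 (from 0.745 to 1.20). Exocrine pancreas markers were highest at 21 months with 201.5 and amounted to 63.6, 27.9 and 13.7 at 3, 9 and 15 months. Cholangiocyte markers stayed between 14.4 and 30.2. No count was found for Epcam (cholangiocytes), S100a9 (blood) and Amy2a5 (pancreas). The part of these differences in the values of the members was not tested.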

How the data were processed

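The members and the gene lists were chosen with earlier results of these data known. The authors used the CLC Genomic workbench to map SOLiD reads of 35 bp against mm9. The submitters' processing notes name HTSeq. The deposited values are raw counts per gene symbol, made by the authors without normalisation. Whether counting used the strand was not given in the sources used here. Records that named no gene, most of them not uniquely aligned (72.2% to 76.7% of all records), were left out. The files hold 33924 symbols, 33923 of them in GENCODE M1 on NCBIM37.

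Scale factors, ratios and intervals were computed with Python 3.11.15 and scipy 1.17.1, and the age trend with edgeR 4.0.16 (TMM, 2 residual degrees of freedom, Benjamini-Hochberg adjustment) in R 4.3.3. The trend and the intervals were also run on simulated data. For the trend, the spread simulated between libraries was smaller than that estimated here (common dispersion of 0.0694). That run hence does not show what the trend could detect in these libraries. Relative counting error is 1 over the square root of a count, or 44.7% for Mt2 at 3 months and 2.74% for Mt1 at 9 months. Only genes with at least 40 counts over the 4 libraries entered counts over all genes. Genes named are the members, the 5 nearest profiles and up to 4 genes per list with the largest 9 month ratio in either direction. Exceptions are Mtf1, Mrpl49, Tat, Tdo2, Sds, Hsd11b1 and Alas2 (chosen after their values were seen) and the marker genes without counts. Of the members, 9 of 10 had a promoter window in the RefSeq table.

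Stretches of read length (35 bases) from the 5′ first 100 bases of the members' transcripts were searched for in NCBIM37, allowing 1 mismatch. A second match was found for 13.1% of those of Tsc22d3 and for none of the other 9 members. The exons of Slc30a1 overlap 1700034H15Rik on the other strand, which had 0, 2, 0 and 0 counts. Alternatives were other scale factors (library totals, TMM, DESeq2 1.42.0 size factors, 7 marker genes of the study), other count filters, other fold thresholds, other references and DESeq2's Wald test.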

Additional observations from a re-analysis of the deposited data

How the results depend on the processing

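Of the 10 genes, 2 were highest at 9 months and 2 were past 2-fold over each other age there under all 4 other scalings, and 2 with thresholds of 1.5-fold and 3-fold and with each other library left out of the reference. Over 8 alternatives the 9 month ratio ranged from 5.62 to 8.68 for Mt1, from 6.51 to 25.4 for Mt2, from 0.708 to 0.949 for Slc30a1, from 0.501 to 1.12 for Fkbp5, from 0.765 to 1.10 for Tsc22d3, from 1.10 to 1.69 for Sgk1, from 0.346 to 0.478 for Cdkn1a, from 0.919 to 1.11 for Lpin1, from 0.460 to 0.546 for Angptl4 and from 0.423 to 0.949 for Pdk4. Scaling by the 7 marker genes moved the median log2 ratio of all genes tested from -0.02 to -0.22, and Mt1 to 5.995, and on that scale 0.589% of all genes were past 2-fold over each other age. With at least 10 counts in every library this share was 0.207%, and without a filter it was 9.13%, where genes with few counts enter. An age trend was called for 9 genes without a filter, for 3 with clr scale factors and for 9 without the 9 month pool, where the cause was not tested. Without this pool the slope of Mt2 was a rise of 0.201 log2 per month, from 3 libraries with 1 residual degree of freedom. This slope rested on 5 counts at 3 months. As the counts of Mt2 had been used to choose it, this is a description. The whole-list medians ranged from -0.18 to 0.17 for glucocorticoid, from -0.18 to 0.09 for fasting and from -0.54 to 0.74 for p53 targets. No paired analysis was possible because there was 1 library per age. Apart from Mt1, Lpin1 and Mt2 at 9 and 21 months, the members had fewer than 40 counts in each library and hence wide intervals, and spread between mice cannot be measured.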
